A study of Mus musculus with 4 samples.

Results

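Cytosolic ribosomal protein genes encode the proteins of the small (Rps) and large (Rpl) subunits of the ribosome outside mitochondria. They were taken from the array by gene name: Rpl or Rps followed by a number, with at most a short suffix, plus Rplp0, Rplp1, Rplp2 and Rpsa, leaving out the S6 kinases (Rps6k) and the mitochondrial ribosomal proteins (Mrp). The rule used no measured value and found 80 genes, 48 of the large and 32 of the small subunit, of 27962 gene names on the array. They were read by 134 of 41174 probes.

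The cells were of 1 line, ZHBTc4, mouse embryonic stem cells whose only Oct4 (Pou5f1) comes from a transgene that doxycycline turns off. Oct4 is a transcription factor needed to hold such cells in the undifferentiated state. In the dox+TCP group the cells received 2 µg doxycycline for 48 h together with TCP, which the labels do not spell out and which in work on LSD1 (Kdm1a) usually stands for tranylcypromine, an inhibitor of that demethylase. In the dox group they received the same doxycycline treatment alone. The reference was ZHBTc4 RNA with no treatment named. Each group had 2 biological replicates, each on 1 two-colour array with treated RNA in Cy5 and the reference in Cy3, and no array had the dyes swapped. All cells had grown on irradiated embryonic fibroblasts before 2 passages on gelatin.

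Between 74.3% and 78.1% of the other spots were well above background in Cy5 and between 68.8% and 78.1% in Cy3, and none was saturated. Pou5f1 averaged -3.43 on the log2 ratio scale with dox+TCP and -3.48 with dox, in the direction of the labels. Kdm1a averaged 0.07 with dox+TCP and 0.27 with dox and was not called. Of 12 embryonic stem cell markers, 9 were called lower with dox+TCP and 11 with dox. Of 11 trophoblast markers tested, Gata3 and Msx2 were called higher in both groups. The median ratio of the trophoblast markers was 2.04 and 0.20 on dox+TCP replicates 1 and 2, and 2.98 and 0.77 on dox replicates 1 and 2. Both replicate 2 arrays also had the higher Cy3 level of these markers, at 11.1 with dox+TCP replicate 2 and 11.9 with dox replicate 2, against 9.79 and 10.13 on the replicate 1 arrays of dox+TCP and dox (median log2 intensity). The reference channel thus differed between arrays in these markers. The 12 fibroblast markers had median ratios between -0.58 and 0.13, and 1 was called higher and 1 lower with dox+TCP. The part of either marker list in the values below was not tested.

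A ribosome is built from ribosomal RNA and one copy of most ribosomal proteins, so the genes of the 2 subunits are usually expressed in proportion. Their messenger RNAs are among the most abundant of a growing cell and start with a run of pyrimidines (C and T), the 5′ terminal oligopyrimidine tract, through which mTOR signalling controls their translation. Embryonic stem cells divide fast and are known for a low rate of translation, which rises on differentiation. A change in the messenger RNA on an array does not measure translation.

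RefSeq promoter sequence at the start of the gene (GRCm38.p6) was at hand for 51 of the 80 genes. Sequences from 50 bases before the start to 30 bases from it onward are shown to let the start-site tract be seen in the 2 marker genes of the family, in the gene with the highest mean ratio with dox+TCP (Rpl12), and in 2 paralogs whose ratios were negative (Rpl22l1 and Rpl7l1). Capitals mark the longest unbroken run of C and T within the 20 bases on either side of the start. A run that crosses the edge of that window is counted only inside it. Rpl13a lies on the minus strand at chr7:45128716-45128795, Rps18 on the minus strand at chr17:33955636-33955715, Rpl12 on the plus strand at chr2:32961662-32961741, Rpl22l1 on the plus strand at chr3:28805458-28805537 and Rpl7l1 on the minus strand at chr17:46782627-46782706.
Rpl13a: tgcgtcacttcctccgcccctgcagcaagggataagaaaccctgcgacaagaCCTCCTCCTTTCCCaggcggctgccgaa
Rps18: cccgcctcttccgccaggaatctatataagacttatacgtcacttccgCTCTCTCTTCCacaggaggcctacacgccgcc
Rpl12: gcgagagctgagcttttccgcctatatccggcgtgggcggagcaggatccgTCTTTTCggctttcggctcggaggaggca
Rpl22l1: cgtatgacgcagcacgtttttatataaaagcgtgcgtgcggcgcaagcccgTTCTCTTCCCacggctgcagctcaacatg
Rpl7l1: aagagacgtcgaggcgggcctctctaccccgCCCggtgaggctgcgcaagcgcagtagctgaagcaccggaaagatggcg

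The run was 14 bases long in Rpl13a, 11 in Rps18, 10 in Rpl22l1, 7 in Rpl12 and 3 in Rpl7l1. A run of 8 or more was found in 20 of the 51 genes (39.2%), against 16.1% of 19827 promoters in all. CCGGAAG, the core of the motif of ETS factors such as GABP, was present on either strand of the whole RefSeq window, 250 bases before to 50 after the start, in 39.2% of the 51 genes and 7.35% of all promoters. That window is longer than the sequences shown. AAGATGG, part of the motif of YY1, was present in 17.6% and 6.64%; it contains ATG, and the 2 motifs share no more than AAG. Among the small subunit genes 40% had a run of 8 or more and among the large subunit genes 38.7%. Rpl22l1 had both a long run and negative ratios, so the run did not separate the genes shown by direction. These matches describe the sequence searched and locate no bound factor.

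On all 4 arrays most ribosomal protein genes had a positive log2 ratio of treated cells over the reference, by a small amount. The median of the 80 genes was 0.35 and 0.34 on dox+TCP replicates 1 and 2, and 0.24 and 0.28 on dox replicates 1 and 2. The median of all 21582 genes tested was 0.09 on both dox+TCP arrays, and 0.03 and 0.15 on dox replicates 1 and 2. All 80 genes were well above background in both channels on all 4 arrays, and 77 lay among the brightest 10% of the genes tested. The other 2082 genes of that bright share had medians between -0.05 and -0.09. The values are log2 of Cy5 over Cy3 as the scanner software normalized them, and a difference of 1 is a 2-fold difference.

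**Figure D1:**
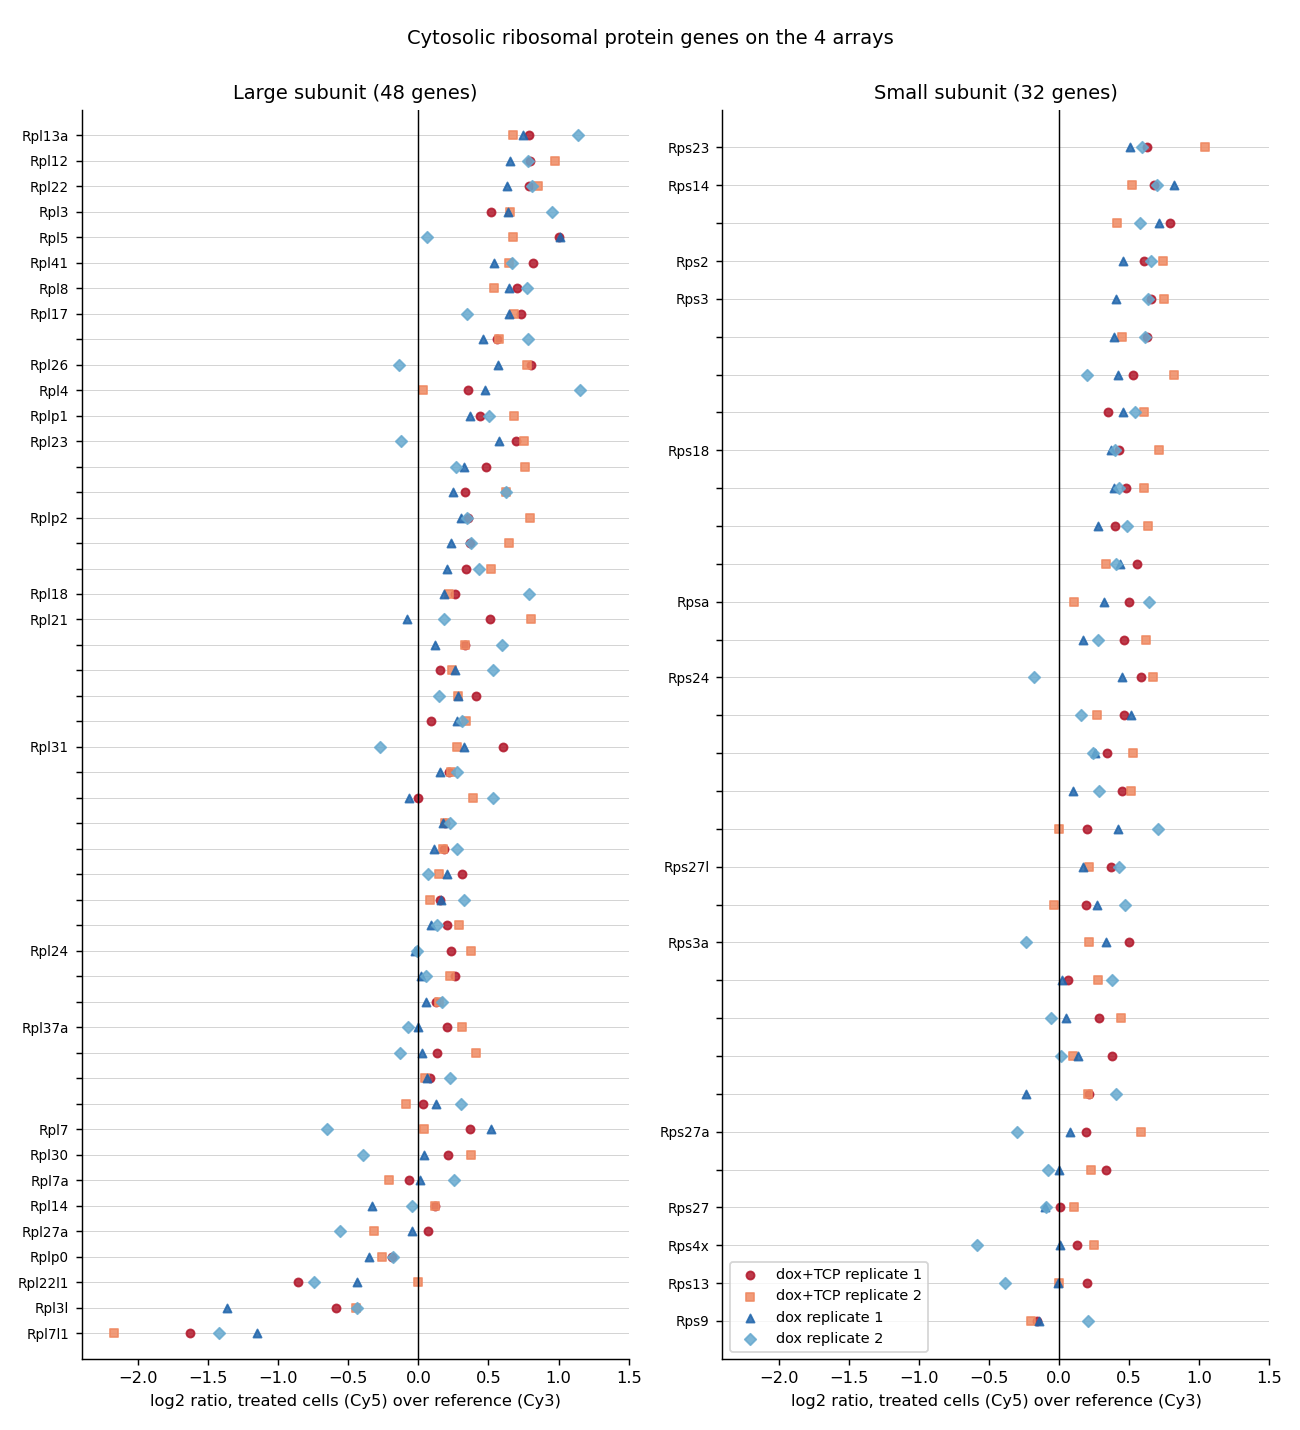
Log2 ratio of treated cells (Cy5) over the reference (Cy3) for each of the 80 genes on each array, large subunit left and small subunit right, ordered by the mean of the 4 arrays, with the names of the genes described in the text. Most points lie between 0 and 1, and Rpl7l1 lies below -1 on all 4 arrays.

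The ratio was above 0 on both dox+TCP arrays for 68 of the 80 genes, against 48.8% of all genes with values. It was above 0 on both dox arrays for 54 genes, against 41.3%. It was below 0 on both dox+TCP arrays for 6 genes, against 33.4%, and on both dox arrays for 10, against 28.1%. On all 4 arrays it was above 0 for 50 genes, against 34.1%, and below 0 for 4 genes, against 23.1%. Those 4 were Rpl7l1, Rpl3l, Rpl22l1 and Rplp0, all of the large subunit. Since every array has the same dye order, a dye effect of a probe and an effect of the treatment cannot be told apart in a ratio to the reference. The same amount of RNA was labelled for each array, so a ratio shows a share of the labelled RNA, and fewer cells of a type cannot be told apart from less RNA per cell.

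**Figure D2:**
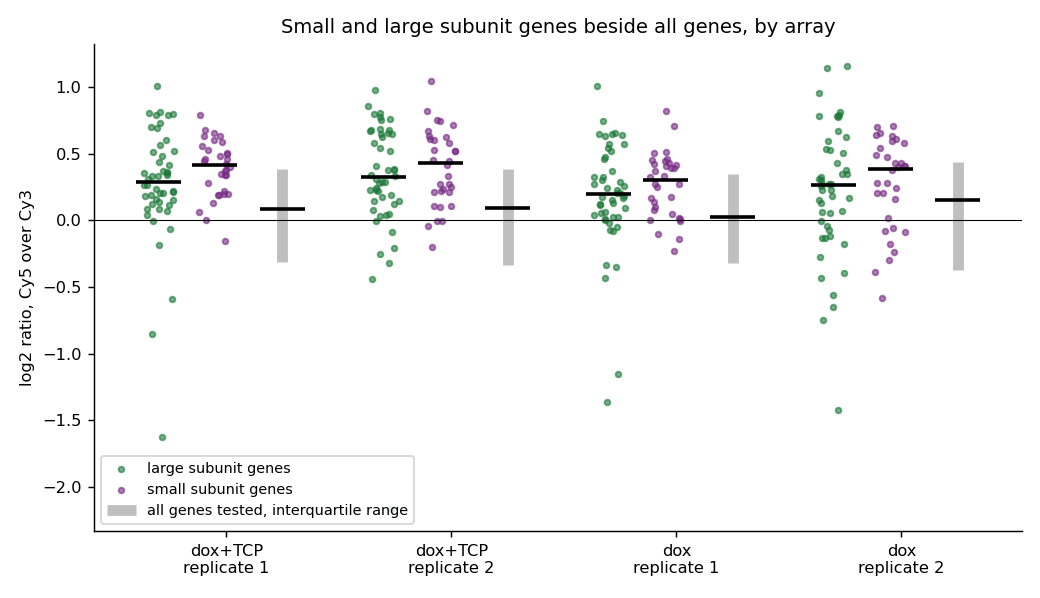
Log2 ratios of the large subunit (green) and small subunit (purple) genes on each array, with black bars at the medians and, in grey, the interquartile range of all genes tested. The medians of both subunits lie above the median of all genes on each array, between 0.19 and 0.43.

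With dox+TCP, 7 ribosomal protein genes were called higher than the reference and 1 lower (limma, adjusted p under 0.05 over all genes). Of the ribosomal protein genes 8.75% were thus called higher, against a background of 7.78% of all genes called higher and 8.17% called lower, or 16% in all. Their median log2 ratio was 0.34, against 0.10 for all genes. These values hold for the scanner's ratio: with another background correction and normalization (normexp and loess) 55% of the ribosomal protein genes were called higher, against 7.26% of all genes. The 7 called higher with the scanner's ratio were Rpl12, Rpl22, Rpl41 and Rpl17 of the large subunit and Rps23, Rps3 and Rps2 of the small subunit.

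Rpl12, a protein at the base of the ribosomal stalk, had log2 ratios of 0.79 and 0.98 on the dox+TCP arrays. Both exceeded the dox arrays' values of 0.66 and 0.78. Its mean of 0.89 ± 0.15 (SE, n = 2), or 1.85-fold, passed the test (limma, adjusted p = 0.0275). Rpl22, an RNA-binding protein on the outer surface of the large subunit, had 0.79 and 0.86 with dox+TCP, against 0.63 and 0.81 with dox. These arrays overlapped between the groups, and the dox+TCP mean was 1.77-fold the reference (limma, adjusted p = 0.0308). Its second probe gave 0.83 and 0.06 with dox+TCP, so the size of the rise depended on the probe on replicate 2.

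Rps23, a protein of the decoding centre, had 0.63 and 1.04 with dox+TCP, against 0.51 and 0.59 with dox. Both dox+TCP arrays were above both dox arrays, and the 2 dox+TCP arrays differed from each other more than the dox arrays did. The dox+TCP mean was 1.79-fold the reference (limma, adjusted p = 0.04). Rpl41, the smallest ribosomal protein, had 0.82 and 0.65 with dox+TCP and 0.54 and 0.67 with dox. Its groups overlapped, and its mean with dox+TCP was 1.66-fold the reference (limma, adjusted p = 0.0401). Rps3, which lines the entry of the messenger RNA channel, Rps2, its neighbour in the small subunit, and Rpl17 at the exit tunnel are named because they passed, not by the naming rule, with means of 0.70, 0.67 and 0.71.

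Rpl5, which carries 5S ribosomal RNA into the large subunit, had the second highest mean with dox+TCP and was not called. Its ratios were 1.00 and 0.67 with dox+TCP, against 1.01 and 0.06 with dox. Dox replicate 2 was far below the other 3 arrays, and limma gave an adjusted p of 0.106. Rpl26, an exit tunnel protein, had 0.80 and 0.78 with dox+TCP, against 0.57 and -0.14 with dox. Its 2 dox+TCP arrays were within 0.03 of each other and both above the dox arrays, with a limma adjusted p of 0.0738 against the reference. At the low end after the 4 genes named above was Rps9, a protein near the messenger RNA entry, with -0.16 and -0.20 with dox+TCP and -0.14 and 0.20 with dox, not called. With dox+TCP replicate 1 left out the median of the 80 genes with dox+TCP was 0.34, against 0.09 for all genes. With replicate 2 left out it was 0.35, against 0.09. Calls fell over the whole array in these 2 fits, and no call of a ribosomal protein gene held. When either dox array was left out, calls rose over the whole array.

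With dox alone, 6 ribosomal protein genes were called higher than the reference and 1 lower. Of the ribosomal protein genes 7.5% were thus called higher, against a background of 7.6% of all genes called higher and 7.67% called lower, or 15.3% in all. Their median log2 ratio was 0.23, against 0.08 for all genes. With normexp and loess 28.8% of the ribosomal protein genes were called higher, against 6.26% of all genes. The 6 called higher with the scanner's ratio were Rpl13a, Rpl3, Rpl22, Rpl12 and Rpl8 of the large subunit and Rps14 of the small subunit. Both comparisons share the reference, so the genes called in each were not compared as a result.

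Rpl13a, one of the 2 markers of the family and known for a role in translational control outside the ribosome, had log2 ratios of 0.79 and 0.67 with dox+TCP, against 0.75 and 1.14 with dox. Dox replicate 2 was the highest array and the groups overlapped. The dox mean was 0.94 ± 0.17 (SE, n = 2), or 1.92-fold the reference (limma, adjusted p = 0.0304), and the dox+TCP mean of 0.73 missed the threshold (limma, adjusted p = 0.0525). In the channels, Cy5 was 18.1 and 17.8 with dox+TCP, against 18.0 and 18.1 with dox, and Cy3 was 17.4 and 17.1 on the dox+TCP arrays, against 17.3 and 17.0 on the dox arrays (log2 intensity after scaling between arrays). The high ratio on dox replicate 2 thus went with the lowest Cy3 level.

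Rps14, whose loss of one copy is known in human 5q- syndrome, had 0.68 and 0.52 with dox+TCP, against 0.82 and 0.70 with dox. Both dox arrays were above both dox+TCP arrays. The dox mean was 1.70-fold the reference (limma, adjusted p = 0.0365). Rpl3, a protein next to the peptidyl transferase centre, had 0.52 and 0.66 with dox+TCP, against 0.64 and 0.96 with dox. Its groups overlapped, and the dox mean was 1.74-fold the reference (limma, adjusted p = 0.0395). Rpl8, also near the peptidyl transferase centre and named because it passed, averaged 0.71 with dox. Rpl4, which lines the exit tunnel, had the second highest mean with dox, 0.82, and was not called. Its ratios were 0.35 and 0.03 with dox+TCP, against 0.48 and 1.16 with dox. Dox replicate 2 was again the highest array, with a Cy3 level of 15.2, against 16.2 to 16.4 on the other 3 arrays.

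Among the lowest genes with dox, Rpl27a, a large subunit protein, had 0.07 and -0.32 with dox+TCP and -0.05 and -0.56 with dox. Rps4x, the X-linked small subunit protein that escapes X inactivation in humans, had 0.13 and 0.25 with dox+TCP, against 0.01 and -0.59 with dox. Neither was called with dox, and on these probes, the brightest, the low value of each lay on a replicate 2 array. The second Rpl27a probe was negative on all 4 arrays, at -0.82 and -1.01 with dox+TCP and -0.70 and -1.71 with dox. The second Rps4x probe had 0.25 and 1.14 with dox+TCP, against -0.47 and 0.12 with dox, so its low value lay on dox replicate 1. With dox replicate 1 left out the median of the 80 genes with dox was 0.28, against 0.15 for all genes. With replicate 2 left out it was 0.24, against 0.03. No call higher with dox held without dox replicate 2 or without either dox+TCP array, where fewer genes of the whole array were called. Without dox replicate 1 fewer ribosomal protein genes were called higher.

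Between dox+TCP and dox, no ribosomal protein gene was called in either direction, and limma called 0 of all 21582 genes (0%). Without adjustment, 696 genes had a p under 0.05 (3.22%), among them 0 ribosomal protein genes. The median difference of the 80 genes was 0.13, against 0.02 for all genes, and turned to -0.41 with normexp on the local backgrounds as read. Within the slide that held both replicate 1 arrays the median difference was 0.11, and with scan day as a block it was 0.08. Dox+TCP replicate 2 was the only array of its scan day, so that block sets it aside.

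Both dox+TCP arrays were above both dox arrays for 30 of the 80 genes, against 14.7% of all genes. The reverse held for 10 genes, against 14.8%. The 30 were 15 of the small and 15 of the large subunit. Rpl21 had the smallest p of the family, with ratios of 0.51 and 0.81 with dox+TCP, against -0.08 and 0.18 with dox. The groups did not overlap, and the difference of 0.61 ± 0.24 (SE, n = 2 each) had an unadjusted limma p of 0.0527. The second Rpl21 probe gave -0.04 and -0.21 with dox+TCP, against -0.46 and -0.32 with dox, so both probes were higher with dox+TCP while their sign against the reference differed.

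Rpl23, a large subunit protein that can bind Mdm2, had 0.70 and 0.75 with dox+TCP, against 0.57 and -0.12 with dox. The second Rpl23 probe was negative on all 4 arrays, at -0.06 and -0.31 with dox+TCP and -0.22 and -1.26 with dox. Rps24, a small subunit protein mutated in some Diamond-Blackfan anaemia, had 0.59 and 0.67 with dox+TCP, against 0.45 and -0.18 with dox. Rps27a, made as a fusion to ubiquitin, had 0.19 and 0.58 with dox+TCP, against 0.08 and -0.30 with dox. On the brightest probe of each of the 3 genes the difference from dox was larger on replicate 2, where the dox array was negative. The second Rps24 probe had 1.11 and 0.89 with dox+TCP, against 0.36 and 0.31 with dox, positive on both dox arrays. The third had -1.07 and -1.72 with dox+TCP, against -1.24 and -1.07 with dox, so on replicate 2 it was lower with dox+TCP. In the other direction, Rpl7a had -0.06 and -0.21 with dox+TCP, against 0.01 and 0.25 with dox. On this probe, its brightest, the groups did not overlap, and it was not called.

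The small subunit genes lay slightly above the large subunit genes on each array. Their medians were 0.41 and 0.43 on dox+TCP replicates 1 and 2, against 0.29 and 0.32 for the large subunit. On dox replicates 1 and 2 they were 0.30 and 0.39, against 0.19 and 0.26. The difference of the medians of group means was 0.14 with dox+TCP and 0.09 with dox, where it turned to -0.05 when the tested probes of a gene were averaged. With dox+TCP it stayed between 0.10 and 0.20 under the other ways of making the values. The difference between treatments, dox+TCP minus dox, had a median of 0.12 for the small and 0.09 for the large subunit on the slide with both replicate 1 arrays. Genes of a subunit are not replicates, so no test was made.

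The stalk proteins Rplp1 and Rplp2, which recruit elongation factors, were positive on all 4 arrays and not called. Rplp1 had 0.44 and 0.68 with dox+TCP, against 0.37 and 0.51 with dox. Rplp2 had 0.35 and 0.79 with dox+TCP, against 0.30 and 0.34 with dox. In Rplp2 both dox+TCP arrays were above both dox arrays, and in Rplp1 they overlapped. With normexp and loess Rplp1 was called higher with dox+TCP (0.90) and with dox (0.75), and Rplp2 with dox+TCP (0.91). Rplp0, which anchors both to the large subunit, was read by 1 probe and was negative throughout, at -0.19 and -0.26 with dox+TCP and -0.35 and -0.18 with dox. That probe, of accession U89419, was placed by the files on chromosome 8 at 101459316 to 101459375 (mm7), whereas RefSeq has Rplp0 on chromosome 5, and which locus it reads was not tested. Its median-centred value was positive, at 0.58 with dox+TCP and 0.64 with dox.

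Rps18, the second marker of the family and a protein of the small subunit head, had 0.42 and 0.72 with dox+TCP, against 0.37 and 0.40 with dox. On this probe, its brightest, both dox+TCP arrays were above both dox arrays. The mean was 1.49-fold the reference with dox+TCP (limma, adjusted p = 0.0764) and 1.30-fold with dox (limma, adjusted p = 0.173). With normexp and loess Rps18 was called in both groups, at 0.98 with dox+TCP (limma, adjusted p = 0.0203) and 0.75 with dox (limma, adjusted p = 0.0272). Its 2 other probes were positive or near 0 on every array, from -0.06 to 0.92, and on both the groups overlapped. They had 0.70 and 0.59 with dox+TCP, against 0.63 and 0.92 with dox, and -0.06 and 0.27, against 0.08 and 0.22. With the mean of the tested probes, dox+TCP minus dox was 0.006. Rpsa, a small subunit protein also known as the laminin receptor, had 0.50 and 0.11 with dox+TCP, against 0.32 and 0.64 with dox. On this probe, its brightest, the groups overlapped, and the gene was not called. The second Rpsa probe had -0.08 and -0.36 with dox+TCP, against -0.01 and 0.18 with dox, and there the groups did not overlap. With the mean of the tested probes Rpsa averaged 0.04 with dox+TCP and 0.28 with dox.

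Of the 4 paralogs among the 80 genes, which resemble a core ribosomal protein in sequence, 1 was called. Rpl7l1, the paralog of Rpl7, was called lower in both groups. It had -1.62 and -2.17 with dox+TCP, against -1.15 and -1.42 with dox. All 4 arrays were below -1 and both dox+TCP arrays were below both dox arrays. The mean was -1.90 ± 0.20 with dox+TCP (SE, n = 2), or 0.269 times the reference (limma, adjusted p = 0.0113), and -1.29 ± 0.20 with dox, or 0.41 times (limma, adjusted p = 0.0213).

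The Cy5 level of Rpl7l1 was 12.9 and 12.4 with dox+TCP, against 13.4 and 13.1 with dox, while its Cy3 level lay between 14.5 and 14.6 on all 4 arrays. The spread in its ratio therefore lay in the treated channel. Its second probe was also negative on all 4 arrays but smaller, at -0.23 and -0.83 with dox+TCP and -0.38 and -0.32 with dox. With the mean of both probes Rpl7l1 was called with dox+TCP, at -1.21 (limma, adjusted p = 0.0215), and not with dox, at -0.82 (limma, adjusted p = 0.0511). Without either dox+TCP array its dox+TCP call was lost, and without dox replicate 2 its dox call was lost.

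Rpl22l1, the paralog of Rpl22, had -0.86 and -0.002 with dox+TCP, against -0.44 and -0.75 with dox, and was not called. Its second probe was steadier, at -0.64 and -0.51 with dox+TCP and -0.61 and -0.50 with dox. Rpl22 itself was called higher in both groups, but in neither with the mean of its probes (limma, adjusted p = 0.0627 with dox+TCP and 0.0653 with dox). The median-centred values of Rpl22l1 were positive, at 0.28 with dox+TCP and 0.26 with dox. Rpl3l, the muscle paralog of Rpl3, had -0.59 and -0.44 with dox+TCP, against -1.36 and -0.44 with dox. Dox replicate 1 was the lowest array, the gene was not called, and its Cy5 level was 7.88 and 7.21 with dox+TCP, against 6.95 and 7.74 with dox. Rps27l, the p53-inducible paralog of Rps27, differed from these 3, at 0.37 and 0.22 with dox+TCP and 0.17 and 0.43 with dox, positive on all 4 arrays and not called.

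The 2 dox arrays were less alike than the 2 dox+TCP arrays. Across the 80 genes the 2 dox+TCP arrays had a correlation of 0.832 and the 2 dox arrays 0.604, against 0.843 and 0.648 for all genes, as a description over genes that share arrays and a reference. The median absolute difference was 0.16 between the dox+TCP replicates and 0.21 between the dox replicates, against 0.22 and 0.37 for all genes. On dox replicate 2, 12 genes lay at least 0.3 below all other arrays (12.7% of all genes did) and 5 lay at least 0.3 above (8.99%), so both counts were close to those of all genes. The 12 were Rpl5, Rpl7, Rpl17, Rpl23, Rpl26, Rpl30, Rpl31, Rps3a, Rps4x, Rps13, Rps24 and Rps27a, chosen after their values were seen, as were the 5, Rpl3, Rpl4, Rpl13a, Rpl18 and Rps9.

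**Figure D3:**
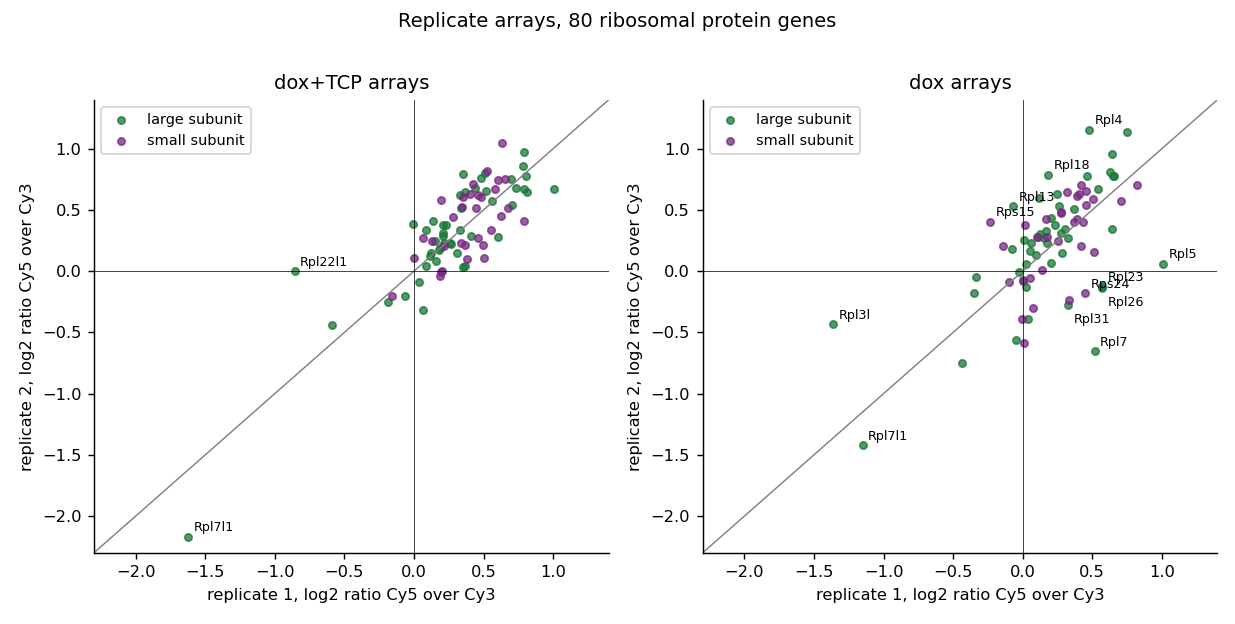
Log2 ratio of the 80 genes on replicate 1 (horizontal) and replicate 2 (vertical), for the dox+TCP arrays on the left and the dox arrays on the right, with the line of equal values. Genes that differ by more than 0.6 or lie below -0.9 on replicate 2 are named; Rpl7 had 0.52 and -0.65 on the dox arrays.

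Between the 2 dox arrays both channels of these genes moved. For all 12 low genes the Cy3 level was higher on dox replicate 2 than on dox replicate 1, by a median of 0.39. The Cy5 level was lower for 10 of the 12, with a median difference of -0.22 over the 12. For all 5 high genes the Cy3 level was lower on dox replicate 2, with differences from -1.001 to -0.26, while the Cy5 level was lower for 2 and higher for 3. Since the genes were chosen by their ratio on that array, the choice partly sets these signs. Rpl7, a large subunit protein with 3 probes, had a low ratio on that array on each of them, at -0.65, -0.54 and -0.59 on dox replicate 2 and 0.52, 0.41 and 0.05 on dox replicate 1.

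The Cy3 levels of the 80 genes on the 2 replicate 1 arrays differed by a median absolute value of 0.06, and dox+TCP minus dox ran from -0.19 to 0.15. On the 2 replicate 2 arrays they differed by a median absolute value of 0.20, and the same difference ran from -0.99 to 1.17. The replicate 1 arrays shared a slide and the replicate 2 arrays did not. In Cy5 the replicate 1 arrays, dox+TCP and dox, differed by a median absolute value of 0.07, against 0.24 for all genes. The median of dox+TCP minus dox was 0.05, as it was for all genes (0.05). The replicate 2 arrays differed by 0.20, against 0.35 for all genes, and that median was 0.02, against -0.01.

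Probes of the same gene did not always give the same sign. Of the 39 genes with several tested probes, the probes disagreed in sign for 12 with dox+TCP and 14 with dox. Rps24 is an example, with 0.59 and 0.67 on its brightest probe with dox+TCP, 1.11 and 0.89 on the second probe and -1.07 and -1.72 on the third. The third probe was designed on a separate cDNA, AK049387, in chromosome 14 at 22164510 to 22164569 (mm7). Ribosomal protein genes have many processed pseudogenes with near-identical sequence, and a probe can read them together with the gene.

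The other lists of the translation machinery had negative medians in both groups, and under median centring only RNA polymerase I kept a negative median in both. Of all genes, 8.17% were called lower with dox+TCP and 7.67% with dox. Of 59 ribosome biogenesis genes, which process ribosomal RNA and assemble the subunits, 0 were called higher and 18 lower with dox+TCP (30.5%), and 0 higher and 9 lower with dox (15.3%). Their median was -0.63 with dox+TCP and -0.59 with dox, and turned to 0.07 with dox under median centring. Wdr46, a nucleolar scaffold protein, averaged -1.14 with dox+TCP (limma, adjusted p = 0.0152) and -0.91 with dox (limma, adjusted p = 0.0224). Of 19 genes of RNA polymerase I and its factors, which transcribe ribosomal RNA, 6 were called lower with dox+TCP (31.6%) and 7 with dox (36.8%), and 0 higher. Ubtf, which binds the ribosomal DNA promoter, averaged -2.04 with dox+TCP and -1.68 with dox. Cd3eap, a subunit of the enzyme, averaged -1.74 with dox+TCP and -1.50 with dox.

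Of 75 mitochondrial ribosomal protein genes, 2 were called higher and 7 lower with dox+TCP, and 0 higher and 7 lower with dox. In all, 12% were called with dox+TCP and 9.33% with dox, against 16% and 15.3% of all genes. Their median was -0.18 with dox+TCP and -0.25 with dox, and both turned positive under median centring, at 0.28 and 0.33. Of 36 translation factors, 2 were called higher and 4 lower with dox+TCP (16.7% in all), and 1 each way with dox (5.56%). Their median was -0.06 with dox+TCP and -0.24 with dox, and turned to 0.58 with dox+TCP and 0.66 with dox under median centring. Eif4b, which stimulates the helicase of initiation, averaged 0.84 with dox+TCP and 0.94 with dox, and Eif4g1, the initiation scaffold, averaged -0.86 with dox+TCP and -0.69 with dox. Of 7 ribosomal protein paralogs on the array, including 4 of the 80 genes, 3 were called lower with dox+TCP and 2 with dox. They were Rpl7l1 and Rpl39l in both groups, and Rps4l with dox+TCP.

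**Figure D4:**
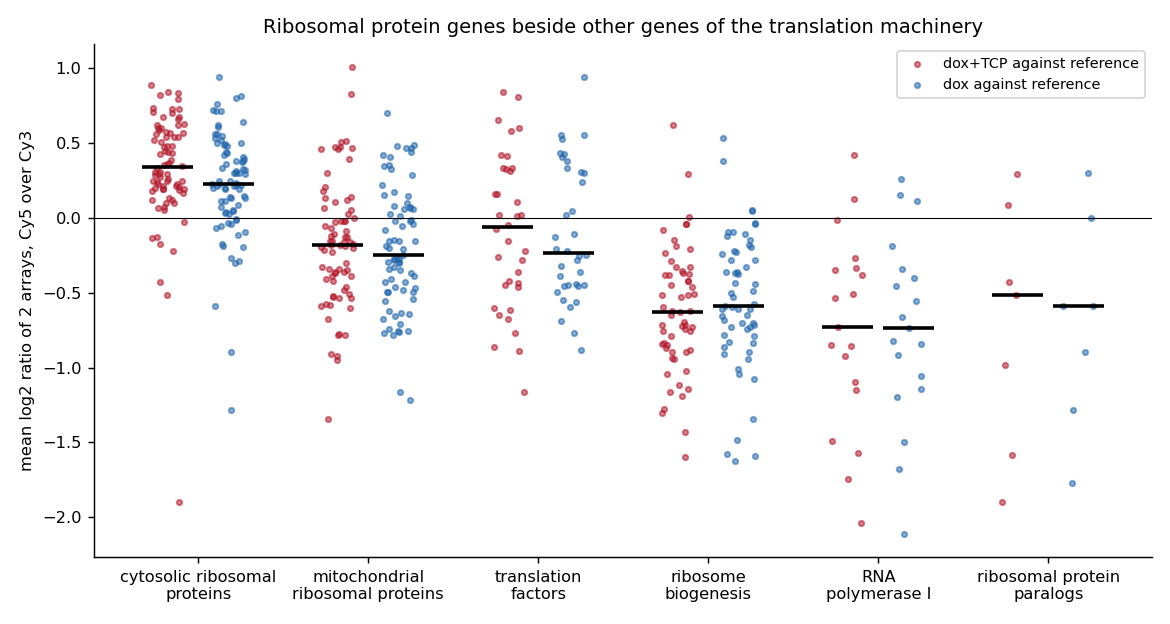
Mean log2 ratio of each gene over the 2 arrays of a group, dox+TCP (red) left of dox (blue), for the ribosomal proteins and 5 other lists, with black bars at the medians. The ribosomal protein medians are 0.34 and 0.23, and those of ribosome biogenesis and RNA polymerase I lie below -0.5.

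Of 29 growth regulators, Mycl1, a Myc family member, was called higher in both groups, at 1.02 with dox+TCP and 1.09 with dox. Myc, a driver of ribosome synthesis, had -1.45 and -2.04 with dox+TCP, against 0.44 and -0.44 with dox. Both dox+TCP arrays were below both dox arrays, and Myc was called lower than the reference with dox+TCP (limma, adjusted p = 0.0245). Its difference of -1.74 ± 0.40 between dox+TCP and dox was not called.

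The number of ribosomal protein genes called depended on how the ratio was made. Background correction by normexp with a loess fit on each array gave 44 called higher with dox+TCP, against 7.26% of all genes, and 23 with dox, against 6.26%. The medians were then 0.57 with dox+TCP and 0.47 with dox. With the ribosomal protein probes kept out of the loess fit, 52 were called higher with dox+TCP (7.42% of all genes) and 34 with dox (6.4%). With median centring, which removes no trend with intensity, 71 were called higher with dox+TCP (18.5%) and 72 with dox (22.6%), at medians of 1.35 and 1.38, where the other genes of the brightest 10% also had positive medians of 0.47 to 0.73. The median of the 80 genes was positive against the reference in all settings run, with either treatment. Neither normexp on the local backgrounds as read nor the scanner ratios with no filter on dim probes called any gene of the array.

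**Figure D5:**
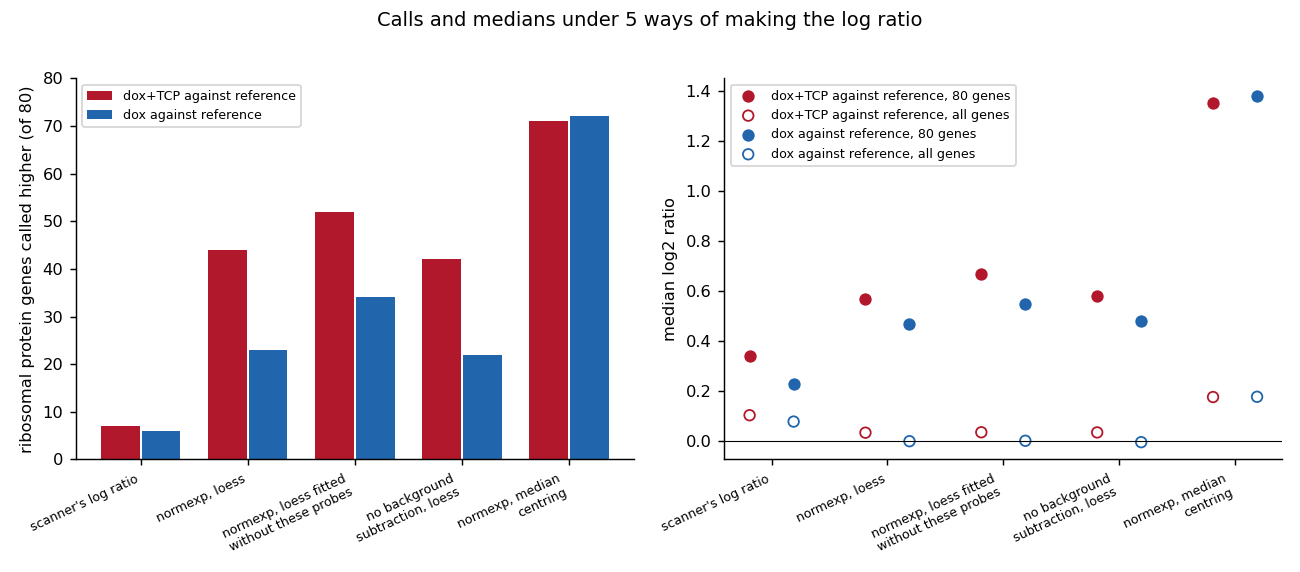
Left, number of the 80 genes called higher than the reference; right, their median log2 ratio (filled) and that of all genes (open), for dox+TCP (red) and dox (blue) under 5 ways of making the log ratio. Counts run from 7 and 6 with the scanner's log ratio to 71 and 72 with median centring.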

How the data were processed

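Agilent arrays of design 014868 with 2 colours (45018 spots, 1639 of them controls) measured the RNA of ZHBTc4 cells on 4 arrays. The deposited log10 ratios of Cy5 over Cy3 were background-subtracted and dye-normalized with a linear and a lowess step by Feature Extraction 10.1.1.1, per the file headers. The deposited signals of each channel are intensities on a linear scale, and probe coordinates are on mm7, per the file headers. The authors' series matrix held the same log10 values within 0.005, in the same direction.

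The log10 ratios were multiplied to log2, outlier spots (119 to 176 per array) were set to missing, and spots of a probe were averaged. A probe was tested if Cy5 was well above background on the 2 arrays of either group, or Cy3 on all 4 (31114 probes, 21582 genes, each by its brightest probe). Channel levels were scaled between arrays (Aquantile). limma 3.58.1 in R 4.3.3 fitted a mean per group over all 4 arrays, with 2 residual and 2.79 prior degrees of freedom, eBayes and Benjamini-Hochberg adjustment at 0.05, two-sided. The median SE was 0.18 against the reference and 0.26 between treatments. The Cy3 RNA counted as 1 control, which leaves out its own spread.

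Earlier work on these arrays used normexp (offset 50, local backgrounds over 2 times the array median replaced) and loess, and its counts stand beside those of the scanner ratio. RefSeq names (GRCm38.p6) matched 112 of the 134 probes by accession and 22 by symbol. The members and gene lists were chosen with earlier results of these data known. The named genes were the markers, stalk proteins, Rpsa and paralogs, in each comparison the 5 highest, the 5 lowest and the 5 of smallest p, up to 3 of each other list, and Pou5f1 and Kdm1a. The fit was tested on simulated data. Some genes that the rule names are not reported here.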

Additional observations from a re-analysis of the deposited data

Results flagged for a closer look

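On the brightest probe, both dox+TCP arrays and both dox arrays lay on opposite sides of 0 in 5 of the 80 genes. The share over all genes was not counted, so the number is not read as a trait of the family. None of these differences between the treatments was called (limma, adjusted p = 1 for each). Of the 5, 4 were above 0 with dox+TCP and below 0 with dox. Rpl14 differed by 0.31 on the log2 scale, with 0.12 and 0.12 on the dox+TCP arrays and -0.33 and -0.04 on the dox arrays. Rpl24 differed by 0.32, with 0.23 and 0.38 with dox+TCP and -0.02 and -0.01 with dox. Its second probe had 0.17 and 0.29 with dox+TCP and -0.13 and -0.11 with dox. Rpl37a differed by 0.30, with 0.21 and 0.31 with dox+TCP and -0.0004 and -0.07 with dox. Rps27 differed by 0.15, with 0.003 and 0.11 with dox+TCP and -0.10 and -0.09 with dox. Rpl7a went the other way, with -0.06 and -0.21 with dox+TCP and 0.01 and 0.25 with dox, a difference of -0.27. Its other probes did not lie on opposite sides of 0. They had -0.59 and -0.46 with dox+TCP, against -0.50 and -0.29 with dox, and -0.43 and -0.53, against -0.18 and 0.08.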

How the results depend on the processing

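Numbers of calls moved with most settings, and directions with few. Of all genes, 3443 were called with dox+TCP and 3296 with dox, and of the ribosomal protein genes 8 and 7. Normexp with replaced backgrounds and loess called 45 ribosomal protein genes with dox+TCP and 24 with dox (medians 0.57 and 0.47), with median differences between treatments of 0.20. With loess fitted without these probes it called 53 and 35 (0.67, 0.55 and 0.23), and without background subtraction 43 and 23 (0.58, 0.48 and 0.20). Of all 21582 genes, the fit without background subtraction called 3124 with dox+TCP and 3176 with dox. Median centring called 72 and 73 (1.35, 1.38 and 0.0687), and 6018 of all genes with dox, raising the share called higher. Backgrounds as read called 0 genes (medians 0.52, 1.05 and -0.41), as did no filter on dim probes. The small minus large subunit medians in these settings, for dox+TCP, dox and their difference, were 0.199, 0.0547 and 0.0909 with normexp and loess, 0.187, 0.0525 and 0.102 without these probes, 0.198, 0.0545 and 0.0884 without background subtraction, and 0.181, 0.0292 and 0.116 with median centring. They were 0.197 with dox+TCP and 0.0256 with dox for backgrounds as read. With the mean of the probes they were 0.0953 and -0.0502, and the dox+TCP median was 0.28.

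Without each array in turn, calls among all genes ran from 138 to 5596 with dox+TCP and from 1725 to 3936 with dox. Calls among ribosomal protein genes ran from 0 to 19 with dox+TCP and from 1 to 4 with dox, and medians from 0.34 to 0.35, from 0.23 to 0.28 and, between treatments, from 0.0646 to 0.151. The subunit differences ran from 0.105 to 0.145, from 0.0871 to 0.126 and from 0.0422 to 0.0992. Where 1 array of a group was left, it was assumed to vary like the other group. Arrays of 1 group alone called 5596 genes with dox+TCP (19 ribosomal) and 2105 with dox (1). Scan day as a block called 396 (0) and 2105 (1), with a median between treatments of 0.0789 and subunit differences of 0.126 with dox+TCP and 0.081 between treatments. The replicate number as a block called 6108 genes with dox+TCP (19 ribosomal) and 6111 with dox (12). With 2 pairs the numbers do not establish pairing: deviations of same-numbered arrays correlated at 0.447 over all genes and 0.183 over the 80. The slide as a random block could not be fitted with 4 arrays. Rps4x with dox turned to 0.83 under median centring (limma, adjusted p = 0.0127). The causes were not tested. Precision is limited by having 2 arrays per group. Rpl3l was the dimmest gene of the family, with Cy5 levels from 6.95 to 7.88 (log2).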
